A study of Homo sapiens with 9 samples.

Results

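LINC00857-siRNA1 was set against the negative control siRNA (NC) in HCT116, an established epithelial cell line from a human colorectal carcinoma. The comparison used 6 of the 9 libraries of the series, 3 transfected with siRNA1 and 3 with NC, and was chosen by the siRNA named for each library. The 3 remaining libraries were transfected with LINC00857-siRNA2, another siRNA against the same RNA, and serve here only for direct comparison with siRNA1. All of them were grown in McCoy's 5A medium with serum and transfected with Lipofectamine RNAiMax, so the siRNA2 and NC libraries carry the transfection as well. Knockdown was transient and in 1 cell line, and total RNA was extracted with Trizol. The table held read counts for 35817 genes, of which 20087 had enough reads to be tested. The siRNA1 libraries held 54097508 to 57815092 counts and the NC libraries 54242901 to 55790505. Of the 7 epithelial markers, all had at least 2806 counts in each of the 6 libraries. Among markers of other cell types, DCN and COL1A2 of fibroblasts had 14 counts at most, KDR of endothelium 7 at most, and PTPRC of immune cells 4 at most. Other members of these marker lists were present: COL1A1 at 3354 to 3545 counts with siRNA1 and 1836 to 2317 with NC, CD68 at 221 to 386 and 344 to 361, and VWF at 41 to 71 and 43 to 62. The labels do not tell whether libraries of the same siRNA were grown and transfected separately, and p-values therefore reflect only how much these libraries vary, which may be technical.

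An siRNA is a short duplex whose guide strand is loaded into an Argonaute protein and directs cleavage of an RNA that it pairs with along its whole length. Bases 2 to 8 of the guide, the seed, can also pair alone with sites in the 3' untranslated regions (3' UTRs) of other messages, as microRNA seeds do, and lower their level. LINC00857 is a long intergenic non-coding RNA that has been studied in several carcinomas. The siRNA1 sense strand given in the study's methods was found in the annotated LINC00857 transcript, on chromosome 10, in exon 2 of 2 (GRCh38, chr10:80219029-80219047, plus strand). The target is printed here because it fixes the seed used further on. The capitals mark the 7 bases that pair with the guide seed.
LINC00857 target of siRNA1: ggctatgtgctGTGAACAa

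LINC00857 itself (ENSG00000237523, lincRNA) had 202.6, 232.3 and 210.5 normalized counts in the siRNA1 libraries, against 526.5, 430.2 and 513.5 in the NC libraries. A normalized count is the read count divided by the library's relative effective size. The groups did not overlap, and the fitted log2 fold change stood at -1.19 (SE 0.155, adjusted p = 0.00038, edgeR quasi-likelihood test with Benjamini-Hochberg adjustment). In bulk RNA, fewer cells that hold a transcript and less of it per cell cannot be told apart. Between the siRNAs the levels of LINC00857 were not told apart, with a log2 difference of siRNA1 over siRNA2 of 0.08 (adjusted p = 0.78).

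Across the transcriptome, 4292 of 20087 tested genes were called at an adjusted p under 0.05 (21.4%). Of these, 2100 were higher with siRNA1 (10.5% of tested genes) and 2192 were lower (10.9%). Most changes were small. The median log2 fold change was 0.34 among genes called higher and -0.35 among genes called lower. A change of at least 1 on the log2 scale, meaning 2-fold, was reached by 212 genes called higher (1.06% of tested genes) and by 125 genes called lower (0.622%). The number of genes that reached this size was larger in the upward direction, while the number of all calls was similar in both. Over all genes tested the median log2 fold change was 0.01.

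Abundance set how many genes could be called and how large a called change was. Among the 971 genes with a mean normalized count over 10000, 26.5% were called higher and 24.8% lower, and the median standard error was 0.037 on the log2 scale. Of the 7533 genes between 1000 and 10000, 17.0% were called higher and 20.02% lower. In the band from 100 to 1000, 8.97% were called higher and 7.39% lower. Between 50 and 100, 3.83% were called higher and 1.85% lower. Of the 4994 genes under 50, 0.98% were called higher and 0.80% lower, with a median standard error of 0.696. Under 50, 16 to 22 genes were called higher without 1 of the siRNA1 replicates, against 49 with all, and 8 to 15 lower without 1 of the NC replicates, against 40. Leaving out 1 library in turn gave 29 to 46 higher and 8 to 19 lower between 50 and 100, against 58 and 28 with all, the fewest without NC replicate 1 and without NC replicate 3. It gave 290 to 362 higher and 221 to 317 lower between 100 and 1000, against 455 and 375, the fewest without NC replicate 1 and without NC replicate 2. The median absolute log2 fold change of called genes ran the other way, from 0.23 in the most abundant band to 2.34 in the scarcest. Changes of the size seen in abundant genes were therefore not detectable at this depth in scarce ones. Genes over 10000 held 49.8% of all normalized counts and those between 1000 and 10000 held 45.8%.

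**Figure D1:**
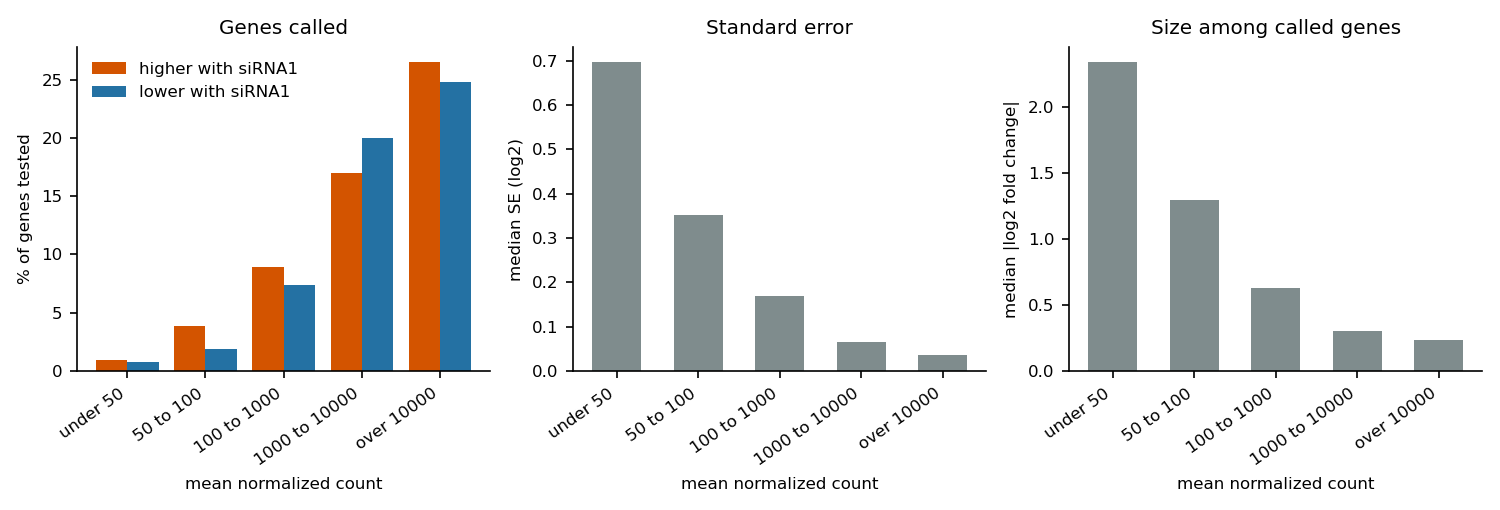
Genes by mean normalized count over the 6 libraries (x axis). The left panel gives the percentage of tested genes called higher or lower with siRNA1, the middle panel the median standard error of the log2 fold change and the right panel the median absolute log2 fold change of called genes. Calls become more frequent with abundance, up to 26.5% higher and 24.8% lower, while their median size falls to 0.23.

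The genes called higher held 22.9% to 23.2% of normalized counts in siRNA1 libraries, against 18.7% to 18.8% in NC libraries. The genes called lower held 24.5% to 24.7% in siRNA1 libraries, against 29.8% in each NC library. Among the most abundant genes called higher were the cytosolic actins, chaperones of the HSP70 and HSP90 families and the elongation factor EEF2. ACTB, cytoplasmic beta-actin and a common reference gene, had 145145, 146399 and 146824 normalized counts with siRNA1, against 107153, 104969 and 107888 with NC. The groups were well apart and the log2 fold change was 0.45 (SE 0.0239, adjusted p = 1.1e-06). HSPA8, the constitutive HSP70 chaperone, rose by 0.31 (SE 0.0335) and HSP90AA1, an HSP90 chaperone, by 0.22 (SE 0.0213) on the log2 scale. CCND1, the D-type cyclin of G1 progression, had 59283, 61070 and 60743 normalized counts with siRNA1, against 94260, 95663 and 96593 with NC. It fell by 0.66 on the log2 scale (SE 0.0266, adjusted p = 2.1e-07), and its libraries did not overlap.

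Mitochondrially encoded RNAs were also prominent among abundant genes called lower. They took 9.02% to 9.59% of counts in siRNA1 libraries, against 10.0% to 10.2% in NC libraries. Of the 13 protein genes of the mitochondrial genome, 8 were called lower and 2 higher. MT-CO1, a catalytic subunit of cytochrome c oxidase, was the most abundant and fell by 0.15 on the log2 scale (SE 0.0165, adjusted p = 0.00016). MT-ND2, a subunit of complex I, rose by 0.23 (SE 0.0320, adjusted p = 0.00056), and MT-ND1 by 0.18 (SE 0.0366, adjusted p = 0.0058). Both ribosomal RNAs were lower. MT-RNR1 had 62020, 59122 and 63335 normalized counts with siRNA1, against 102172, 98496 and 93961 with NC, and its log2 fold change was -0.68 (SE 0.0375, adjusted p = 1.4e-06). MT-RNR2 changed by -0.53 (SE 0.0273, adjusted p = 1e-06). All 20 calls of the mitochondrial genome made up 54.1% of its 37 genes tested, 2 of them higher and 18 lower. Leaving these genes out of the fit gave 2113 higher and 2161 lower calls for the rest. The share of ribosomal RNA in a library can depend on how it was removed, which was not tested.

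The largest increases, among genes with a mean of at least 50 normalized counts whose groups did not overlap, included metabolic enzymes, a glucose transporter and structural genes of skin. SLC2A3, the glucose transporter GLUT3, had 10760, 11325 and 11456 normalized counts with siRNA1, against 1316, 1449 and 1376 with NC. Its log2 fold change was 3.02 (SE 0.0499, adjusted p = 2.8e-10) and its groups were far apart. The near-identical paralog SLC2A14 had 102, 89.9 and 91.5 against 0, 10.3 and 21.1, and its call is uncertain because reads may be shared between the pair and because it was lost without NC replicate 2 (adjusted p = 0.0522). CYP11A1, the mitochondrial enzyme of the first step of steroid hormone synthesis, had 133, 113 and 176 normalized counts with siRNA1. In the NC libraries it had 8.07, 0 and 10, and the log2 fold change was 4.51 (SE 0.650, adjusted p = 0.00072). DHRS2, a short-chain dehydrogenase, had 1539, 1482 and 1695 with siRNA1, against 272, 208 and 265 with NC (log2 fold change 2.66, SE 0.122, adjusted p = 4.2e-07). CYP11A1 and DHRS2 thus differed in abundance but were both far above their NC libraries. In the direct comparison, CYP11A1 was higher than with siRNA2 by 4.555 (adjusted p = 0.0014), while DHRS2 was not told apart (0.16, adjusted p = 0.27).

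CCN1, a secreted matricellular protein whose gene is a target of the co-activator YAP, had 4940, 4959 and 4921 normalized counts with siRNA1, against 1102, 1095 and 1188 with NC. Its groups were far apart, and the log2 fold change was 2.13 (SE 0.0551, adjusted p = 1.4e-08). The transcription cofactor LBH had 98.9, 96.9 and 101 with siRNA1, against 7.06, 21.7 and 14.1 with NC. Its log2 fold change was 2.78 (SE 0.424, adjusted p = 0.001). The membrane ubiquitin ligase MARCHF4 changed by 2.60 (SE 0.355), and KRTAP3-1, a keratin-associated protein of hair, by 3.01 (SE 0.422). PMEPA1, an inhibitor of TGF-beta signaling, changed by 2.35 (SE 0.296) and the collagen V chain COL5A3 by 2.28 (SE 0.367). HRNR, a protein of the cornified layer of skin, changed by 2.26 (SE 0.270), and TNFSF18, the ligand of the receptor GITR, by 2.18 (SE 0.287). Their adjusted p-values lay between 0.00022 and 0.0014. The lncRNA AC002470.2 stood at 148, 47.4 and 135 with siRNA1, against 16.1, 23.8 and 0 with NC, and it overlaps AIFM3 and LZTR1 on the same strand. Its log2 fold change of 3.04 (adjusted p = 0.023) lost its call without siRNA1 replicate 1 (2.77), siRNA1 replicate 3 (2.87) or NC replicate 1 (3.20).

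The largest decreases included 3 readthrough genes, whose exons are those of neighbouring genes. RPL36A-HNRNPH2 had 17.1, 70.2 and 34.6 normalized counts with siRNA1, against 94.8, 1315 and 99.5 with NC. Most of this difference came from NC replicate 2, and without it the log2 fold change of -3.63 became -1.26 with an adjusted p of 0.153. Leaving out siRNA1 replicate 1 (-3.26) or 3 (-3.53) also ended the call. POC1B-GALNT4 had 7.61, 0 and 62 against 77.7, 380 and 180, and its log2 fold change of -3.20 (adjusted p = 0.042) lost its call without siRNA1 replicate 1 or 2 or NC replicate 2 or 3, at -3.31 to -2.48. RPL17-C18orf32 had 550, 699 and 245 against 3432, 2250 and 1824 (log2 fold change -2.33, SE 0.327, adjusted p = 0.0006). Of 52 tested readthrough genes with a mean of at least 50, 1 was called higher and 9 were called lower (17.3%). Over all 15093 tested genes at this cut, 13.6% were called higher and 14.3% lower. Most of those were measured more precisely, as the median standard error of the readthrough genes was 0.335. Genes between 50 and 100 had one of 0.351, with 3.83% called higher and 1.85% lower. Between 100 and 1000 it was 0.169, with 8.97% higher and 7.39% lower. The readthrough share called lower was larger than in either band. The median log2 fold change of the readthrough genes was -0.01. Reads of a readthrough gene can be assigned to its component genes instead, so these counts are uncertain.

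Other large decreases were in oxygen-regulated and signaling genes. EGLN3, a prolyl hydroxylase that marks hypoxia-inducible factors for degradation, had 149, 157 and 143 normalized counts with siRNA1, against 482, 639 and 512 with NC. It fell by 1.86 on the log2 scale (SE 0.167, adjusted p = 3.4e-05). MIR210HG, the host transcript of the hypoxia-linked microRNA miR-210, had 39.0, 52.4 and 21.4 with siRNA1, against 216, 297 and 222 with NC. Its log2 fold change was -2.70 (SE 0.328, adjusted p = 0.00025). NT5E, the cell surface enzyme CD73 that makes adenosine, had 6502, 6188 and 6303 with siRNA1, against 13357, 12698 and 12813 with NC (log2 fold change -1.03, SE 0.0384, adjusted p = 1.3e-07). None of these 3 genes had overlapping groups, which was a condition of choice for genes named as largest changes. CCDC103 changed by -1.85, and its call was lost when siRNA1 replicate 2 or any single NC replicate was left out, at -2.03 to -1.66.

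**Figure D2:**
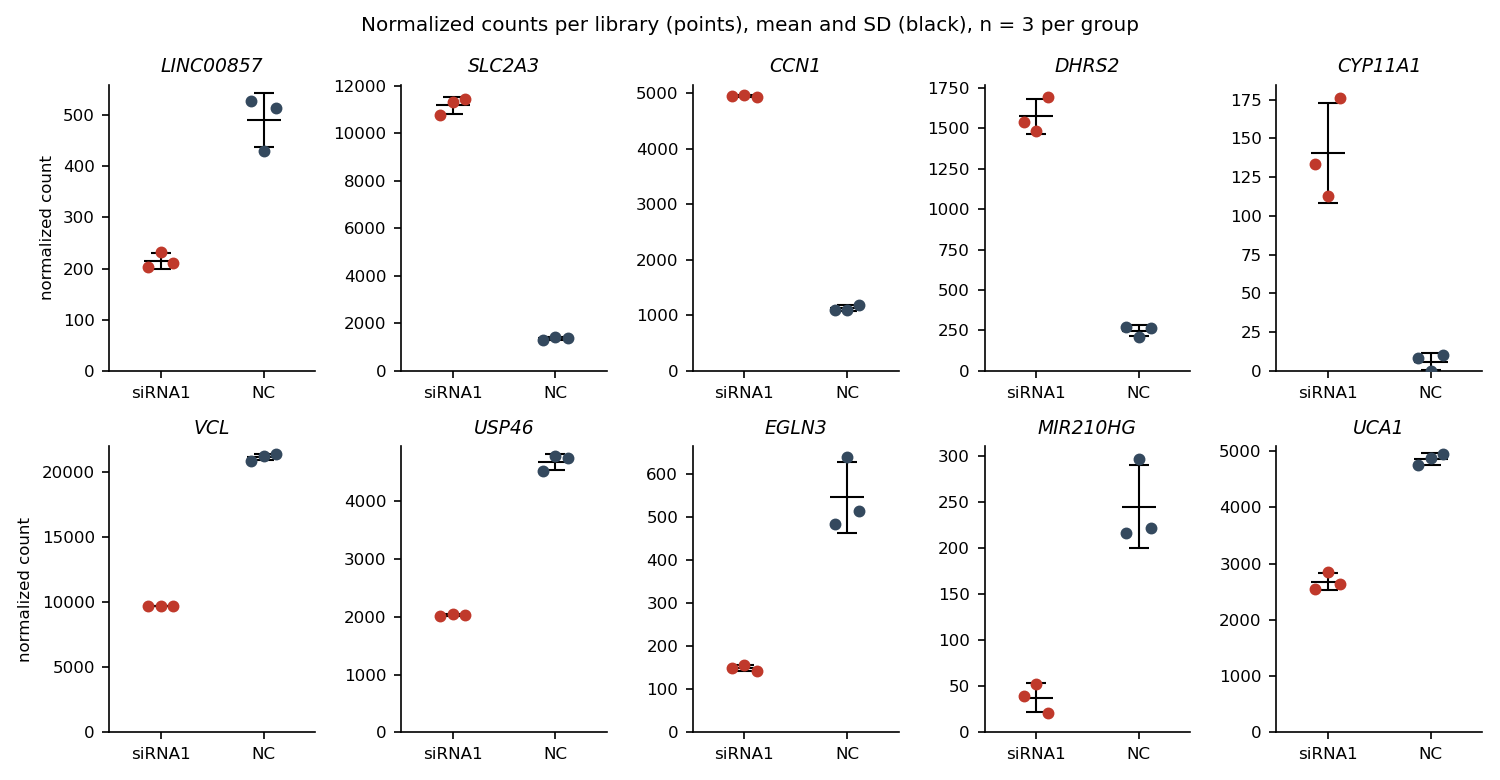
Normalized counts of 10 genes in each library, siRNA1 left and NC right, with points for libraries and black marks for the mean and SD of 3. Every gene shows separate groups, which was a condition of choice for those named as largest changes. SLC2A3 lies at 10760 to 11456 with siRNA1 and at 1316 to 1449 with NC, and VCL at 9716 to 9744 with siRNA1 and 20879 to 21392 with NC.

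The 3' UTRs were then searched for the 7-base word that pairs with bases 2 to 8 of the siRNA1 guide, GTGAACA, on the strand of the transcript. Of 19146 annotated 3' UTRs, 11.03% held it. Among protein-coding genes with a mean of at least 50 and an annotated 3' UTR, 1532 held at least 1 site and 11026 held none. Of the genes with a site, 34.2% were called lower and 8.81% higher with siRNA1. Of the genes without a site, 13.6% were called lower and 16.3% higher. The median log2 fold change was -0.12 with a site and 0.01 without. Leaving out 1 library in turn gave 26.9% to 31.1% called lower with a site and 9.49% to 14.6% without. The share called higher with a site, 8.81%, was 5.61% without NC replicate 1, 5.94% without NC replicate 3 and 6.01% without siRNA1 replicate 3. With 2 or more sites, 39.0% of 228 genes were called lower and the median was -0.15. Where an A followed the word, 39.1% of 440 genes were called lower and the median was -0.16. A match is a description of the sequence and does not show that the guide bound there.

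Genes with a site had longer 3' UTRs, so the same shares were taken within length classes. In the shortest class of 3' UTRs (up to 799 bases), 38.2% of 110 genes with a site were called lower, against 11.7% of 4077 without. In the middle class, 37.8% of 378 genes with a site were called lower, against 15.2% of 3809 without. In the longest class (over 2165 bases), 32.5% of 1044 genes with a site were called lower, against 14.3% of 3140 without. The share called lower was higher with a site in all 3 classes. The share called higher was smaller with a site in all 3 classes, at 3.64%, 6.61% and 10.2% from short to long, against 13.0%, 16.5% and 20.3% without.

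The seed words of the other strands used in the study were searched the same way in the same comparison. The siRNA1 passenger word, ACATAGC, was in 7.16% of all 3' UTRs, and 16.4% of 1011 genes that held it were called lower, against 16.1% of 11547 without. The siRNA2 guide word, GTGAATA, shares its first 5 bases with that of siRNA1 and was in 11.4% of all 3' UTRs. Of 1610 genes that held it, 19.9% were called lower, against 15.6% of 10948 without. The NC guide word, TGTCACG, was in 2.68% of all 3' UTRs. Of 395 genes that held it, 22.03% were called higher with siRNA1 and 16.5% lower, against 15.1% higher and 16.1% lower of 12163 without.

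**Figure D3:**
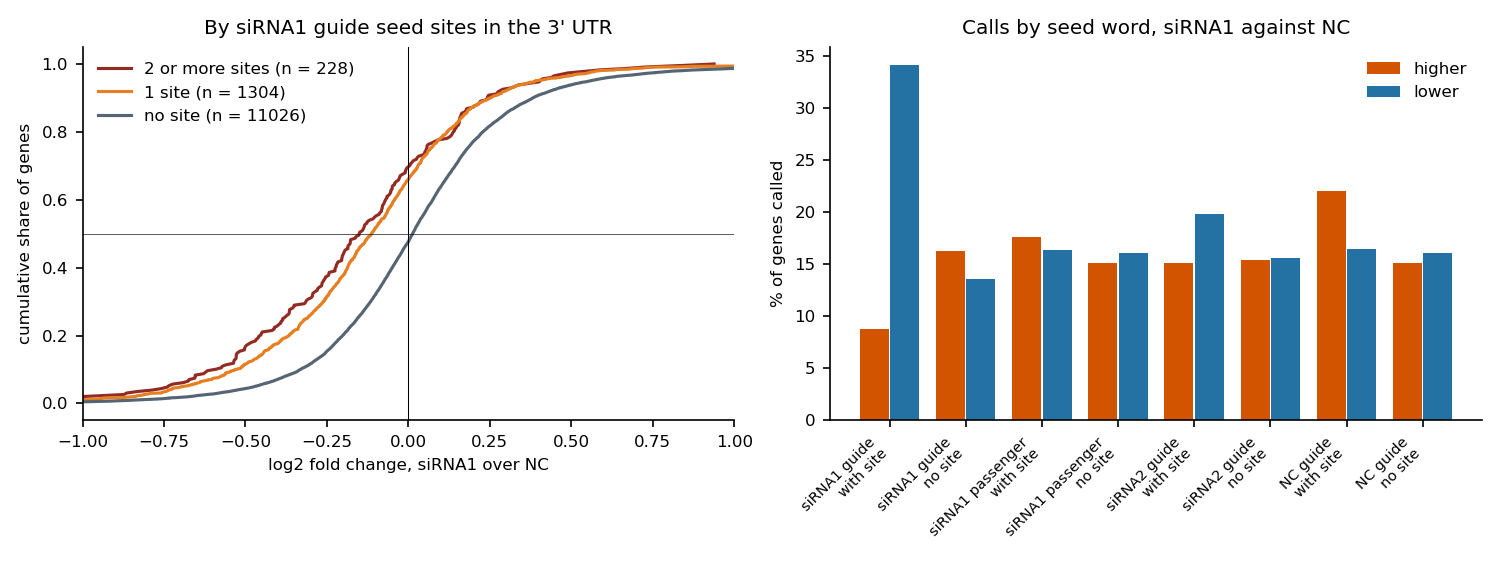
Left, cumulative share of protein-coding genes (y axis) by log2 fold change of siRNA1 over NC (x axis), for 228 genes with 2 or more siRNA1 guide seed sites in the 3' UTR, 1304 with 1 and 11026 with none. Right, percentage of genes called higher or lower for 4 seed words, with and without the word, where the siRNA1 guide word stands out with 34.2% called lower.

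The direct comparison of siRNA1 with siRNA2 did not use the NC libraries to set the difference and called 6216 of 21130 genes (29.4%). Genes with an siRNA1 guide word had a median log2 difference of -0.07 for siRNA1 over siRNA2, and 33.6% of 1532 were called lower and 19.2% higher. Of 11026 genes without it, 19.9% were called lower and 23.6% higher, with a median of 0.02. Genes with an siRNA2 guide word had a median of 0.17, and 42.7% of 1610 were called higher with siRNA1 and 12.8% lower. Of 10948 genes without that word, 20.1% were called higher and 22.8% lower, with a median of -0.01. Relative to genes without it, each word thus went with more calls on the lower side of its own siRNA.

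Sites are printed for 5 called genes with large decreases that hold the word, as examples of what surrounds it, and TP53INP1, which fell further than 3 of them, is described without its site. Each line gives 9 bases on either side, 5' to 3' on the transcript strand, with the word in capitals, and TMEM170B and RAB38 hold 4 and 2 sites of which 1 is shown.
SLC2A12: ctttttttgGTGAACAttgaaaaac
TMEM170B: ctgagtgctGTGAACAtatttgaca
DLX2: ttttaatatGTGAACActgcaaaaa
RAB38: tttttgcaaGTGAACAataaaacat
USP46: taataaactGTGAACAtatttttgt

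These sites lie in the last annotated exon of each transcript, within the 3' UTR. On GRCh38 they are at chr6:133988885-133988909 on the minus strand for SLC2A12, at chr6:11575975-11575999 on the plus strand for TMEM170B, and at chr2:172099822-172099846 on the minus strand for DLX2. The site of RAB38 is at chr11:88113271-88113295 and that of USP46 at chr4:52596255-52596279, both on the minus strand. USP46, a deubiquitinase, had 2016, 2039 and 2031 normalized counts with siRNA1, against 4519, 4769 and 4734 with NC. Its log2 fold change was -1.20 (SE 0.0479, adjusted p = 2e-07), and it was lower than with siRNA2 by -1.04 (adjusted p = 1.4e-08). TMEM170B, a membrane protein gene, had 52.3, 97.8 and 46.8 with siRNA1, against 250, 230 and 209 with NC (log2 fold change -1.80, SE 0.299, adjusted p = 0.0017). RAB38, a small GTPase of lysosome-related organelles, had 344, 212 and 189 with siRNA1, against 579, 543 and 611 with NC. The homeobox gene DLX2 had 46.6, 63.3 and 48.8 with siRNA1, against 112, 157 and 121 with NC. The glucose transporter gene SLC2A12 had 115, 102 and 126 with siRNA1, against 357, 459 and 399 with NC. All 5 had separate groups, which the rule that chose them required. The direct difference from siRNA2 passed the test for USP46, TMEM170B, RAB38 and DLX2, though for TMEM170B not in a fit without the NC libraries, while for SLC2A12 it was -0.16 (adjusted p = 0.67).

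Further genes with the word were called lower among those with over 1000 normalized counts. VCL, vinculin, which links integrin and cadherin adhesions to actin, had 9732, 9744 and 9716 normalized counts with siRNA1, against 20879, 21219 and 21392 with NC. It fell by 1.12 on the log2 scale (SE 0.0319, adjusted p = 1.9e-08), and siRNA1 lay below siRNA2 by -1.16 (adjusted p = 1.8e-11). TP53INP1, a p53-inducible stress protein, had 1116, 1111 and 1204 with siRNA1, against 3300, 3100 and 3296 with NC (log2 fold change -1.50, SE 0.0655, adjusted p = 3.3e-07). TRIAP1, a p53-regulated mitochondrial protein that limits apoptosis, had 1427, 1408 and 1273 with siRNA1, against 2349, 2544 and 2420 with NC (log2 fold change -0.83, SE 0.0721). The groups of these genes were far apart relative to their spread.

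Gene classes, taken from GENCODE, differed in how often they were called. Of 14238 protein-coding genes tested, 1975 were called higher and 2060 lower. Of 3222 long non-coding genes, 83 were called higher and 61 lower. Of 1760 pseudogenes, 23 were called higher and 45 lower. These classes differed in abundance, with a median mean normalized count of 1443 for protein-coding genes, 33.2 for lincRNAs and 36.2 for antisense genes. Within the band from 100 to 1000, 18.9% of protein-coding genes, 10.1% of long non-coding genes and 6.83% of pseudogenes were called. In the band from 1000 to 10000, the shares were 37.3%, 32.2% and 21.1% of 7326, 87 and 90 genes. LincRNAs were called higher 38 times and lower 18 times among 1074, with a median log2 fold change of 0.11, and the higher calls were 20 without siRNA1 replicate 3. Processed pseudogenes were called higher 10 times and lower 20 times among 1077, with a median of -0.07, and leaving out 1 library in turn gave 1 to 6 higher and 8 to 23 lower, both lowest without siRNA1 replicate 3. None of 51 microRNA genes was called by edgeR in this count table.

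**Figure D4:**
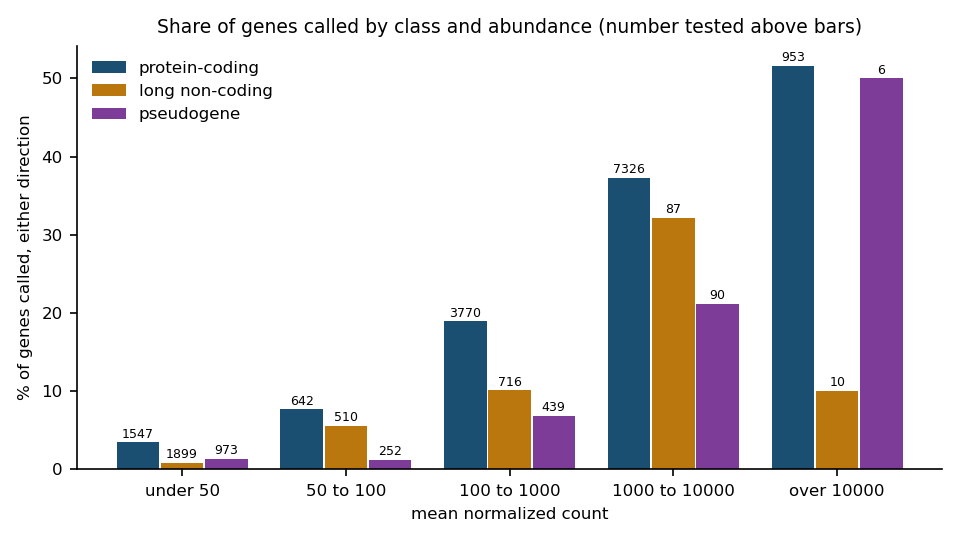
Percentage of tested genes called in either direction (y axis) for protein-coding genes, long non-coding genes and pseudogenes, by band of mean normalized count (x axis), with the number tested above each bar. In the band from 100 to 1000 the shares are 18.9%, 10.1% and 6.83%.

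Among non-coding genes, UCA1, a lincRNA expressed in several carcinomas, had 2550, 2846 and 2634 normalized counts with siRNA1, against 4752, 4885 and 4958 with NC. It fell by 0.86 on the log2 scale (SE 0.0524, adjusted p = 2.6e-06), and siRNA1 differed from siRNA2 by -0.91 (adjusted p = 1.3e-08). FIRRE, a nuclear lncRNA of the X chromosome, had 618, 564 and 535 with siRNA1, against 335, 333 and 267 with NC (log2 fold change 0.88, SE 0.144, adjusted p = 0.0015). DGCR5, on chromosome 22, had 380, 457 and 363 with siRNA1, against 189, 202 and 159 with NC, and its log2 fold change was 1.13 (SE 0.177, adjusted p = 0.0012). OIP5-AS1, an abundant cytoplasmic lncRNA, fell by 0.23 (SE 0.0480, adjusted p = 0.006), and TUG1 fell by 0.17 (SE 0.0456, adjusted p = 0.025). The call of TUG1 was lost without siRNA1 replicate 3 or NC replicate 1 or 3, at -0.16 to -0.14. The annotated pseudogene ANXA2P2 had 3002, 2262 and 2442 with siRNA1, against 4509, 4105 and 4085 with NC, but it resembles its parent ANXA2 and reads may be shared. ENTPD1-AS1 changed by 1.55 (adjusted p = 0.0039), DPP9-AS1 by -1.78 and UPK1A-AS1 by -1.70. DPP9-AS1 lost its call without siRNA1 replicate 3 (-1.55) or NC replicate 3 (-1.32). Whether the counting used strand is not stated, so reads of these antisense genes and their partners cannot be told apart. The lncRNAs AL136982.1 and SERPINB9P1 changed by -3.04 and -1.98, and siRNA1 did not differ from siRNA2 for either (adjusted p = 0.81 and 0.47). AL136982.1 had only 33.3, 21.7 and 16.3 normalized counts with siRNA1. It overlaps AGAP11, AL136982.4, AL136982.6 and BMS1P3 on the same strand, so its reads may be shared.

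Function was described with 50 lists of genes, each by its count of calls and its median beside the 10.5% higher and 10.9% lower of all genes tested. The members of most lists are abundant, so a larger share of them could be called. Among all tested genes with a mean of at least 50, 13.6% were called higher and 14.3% lower. Between 1000 and 10000 the shares were 17.0% and 20.02%, and over 10000 they were 26.5% and 24.8%. Immediate early genes, which answer growth factor signals within minutes, had 14 of 22 members called higher and 2 lower, with a median log2 fold change of 0.30. Without NC replicate 2, 8 were called higher, and without siRNA1 replicate 3 or NC replicate 3, 9 were. EGR1, a transcription factor of this kind, had 3699, 3735 and 4000 normalized counts with siRNA1, against 2461, 2366 and 2264 with NC (log2 fold change 0.69, SE 0.0564, adjusted p = 2e-05). Its direct difference of siRNA1 over siRNA2 was -1.03 (adjusted p = 5.9e-09). JUN rose by 0.62 (SE 0.0632), ATF3 by 0.86 (SE 0.0870) and MYC by 0.38 (SE 0.0333). Genes induced by ERK that feed back on it went the other way, with 8 of 17 lower, 1 higher and a median of -0.21, or 5 lower and -0.14 without NC replicate 2. DUSP6, a phosphatase of ERK, had 5203, 5433 and 5040 with siRNA1, against 7261, 7376 and 7296 with NC (log2 fold change -0.48, SE 0.0406, adjusted p = 2.3e-05). SPRED1, an inhibitor of RAS signaling, fell by 0.51 (SE 0.0573).

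Epithelial junction genes were shifted upward as a list. Of 27 epithelial junction genes, 13 were called higher and 3 lower, with a median of 0.25. The lower calls were 1 without siRNA1 replicate 1 or 3 or NC replicate 1 or 3. EPCAM, an epithelial adhesion molecule, had 10990, 10422 and 10986 normalized counts with siRNA1, against 8240, 7566 and 7625 with NC (log2 fold change 0.47, SE 0.0441, adjusted p = 4.7e-05). The tight junction protein cingulin, CGN, rose by 0.56 (SE 0.0653) and the epithelial splicing regulator ESRP1 by 0.37 (SE 0.0398). Of 10 mesenchymal genes tested, 5 were called lower and 2 higher, and their log2 fold changes ran from -0.96 to 0.97. AXL, a receptor tyrosine kinase, was 1 of the 2 called higher (log2 fold change 0.21, SE 0.0410). ZEB1, a repressor of epithelial genes, had 462, 476 and 531 with siRNA1, against 1003, 836 and 1019 with NC (log2 fold change -0.96, SE 0.115, adjusted p = 0.00023). VIM, the intermediate filament vimentin, fell by 0.66 (SE 0.127). ZEB1, EPCAM and CGN also differed from siRNA2, by -1.53, 0.84 and 1.13 (adjusted p = 2.9e-07, 9.3e-09 and 4.7e-08). Of 21 keratins, 6 were called higher and none lower by edgeR, and the median was 0.36. Without siRNA1 replicate 1 or 2, 4 were called higher and 1 lower. The median standard error of the keratins, 0.444, was larger than their median. Their summed normalized counts were 204296.5 with siRNA1 and 202162.1 with NC. KRT7, a simple epithelial keratin, had 2671, 2258 and 2328 with siRNA1, against 1644, 1622 and 1539 with NC (log2 fold change 0.59, SE 0.0778, adjusted p = 0.00039). KRT80 rose by 0.58 (SE 0.0875), and KRT86 by 1.85, where the groups were 131, 84.0 and 106 against 33.3, 48.6 and 7.03. The call of KRT86 was lost when any single siRNA1 replicate or NC replicate 1 was left out, at 1.68 to 2.00. Without siRNA1 replicate 2, the median of the junction genes was 0.13.

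Genes of adhesion to the matrix moved in both directions. Of 61 collagens, laminins and integrins, 14 were called higher and 12 lower. COL1A1, the fibroblast marker given above as higher with siRNA1, belongs to this list, and its own test result is part of the count. The laminin chain LAMA5 had 23956, 26119 and 25690 normalized counts with siRNA1, against 36046, 36307 and 37521 with NC (log2 fold change -0.54, SE 0.0384), and the integrin chain ITGA6 fell by 0.59 (SE 0.0461). ID1, a BMP target that blocks differentiation factors, had 3326, 2574 and 2678 with siRNA1, against 5936, 5347 and 5680 with NC (log2 fold change -0.98, SE 0.0869, adjusted p = 3.1e-05). Of 30 TGF-beta and BMP genes, 4 were called higher and 7 lower. Of 22 YAP targets, 9 were called higher and 4 lower with a median of 0.14, or 0.08 without siRNA1 replicate 3 or NC replicate 3, CCN1 and NT5E being the extremes. Of 28 actin cytoskeleton genes, 7 were called higher and 6 lower. The tropomyosin gene TPM4 rose by 0.71 (SE 0.0341) and actinin ACTN4 fell by 0.48.

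Growth-related lists moved unevenly. Of 30 ribosome biogenesis genes, 13 were called higher and 1 lower, with a median of 0.13. Without NC replicate 1, 8 were called higher, and without siRNA1 replicate 1, 4 were called lower. NOLC1, a nucleolar phosphoprotein, had 33438, 33804 and 34873 normalized counts with siRNA1, against 21590, 22240 and 21873 with NC (log2 fold change 0.64, SE 0.0317, adjusted p = 7.3e-07). POLR1A, the large subunit of RNA polymerase I, rose by 0.40 (SE 0.0408), and GAR1, a protein of box H/ACA ribonucleoproteins, was the member that fell (log2 fold change -0.45, SE 0.0618). Of 81 cytosolic ribosomal proteins, 2 were called higher (2.47%) and 20 lower (24.7%), with a median of -0.13. Among all genes over 10000, 26.5% were called higher and 24.8% lower. With all libraries, the share called lower was thus near that of abundant genes, and the share called higher was smaller. RPL23 had 14632, 11655 and 11769 with siRNA1, against 23314, 22075 and 21836 with NC (log2 fold change -0.82, SE 0.0763, adjusted p = 4.4e-05). Replicate 1 of siRNA1 was the highest of its group, and without it the median of the list was -0.24 and 66 members were called lower. Leaving out any of the other libraries gave 7 to 11 lower and 0 or 1 higher. Ribosomal protein genes have many pseudogenes, with which reads may be shared. EIF3F, a subunit of initiation factor 3, rose by 0.60 (SE 0.0364), and EIF4EBP1, a repressor of cap-dependent translation, fell by 1.08 (SE 0.0991). EIF4EBP1 was the lowest member of the list of translation factors, and its 3' UTR holds 1 siRNA1 guide word.

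Of 46 genes of DNA replication and G1/S, 18 were called higher and 5 lower, with a median of 0.16. CDC25A, the phosphatase that activates CDK2, had 4792, 5153 and 5050 normalized counts with siRNA1, against 2858, 2860 and 2544 with NC (log2 fold change 0.86, SE 0.0574, adjusted p = 5.1e-06). RRM2, a subunit of ribonucleotide reductase, rose by 0.37 (SE 0.0320), while cyclin E1, CCNE1, fell by 0.58 (SE 0.0698). Of 39 G2/M and mitosis genes, 4 were called higher and 3 lower, with a median of 0.01. The higher calls were 7 without siRNA1 replicate 1, 2 without NC replicate 3 and 1 without NC replicate 1 or 2. Of 28 p53 targets, 5 were called higher and 9 lower, with TP53INP1 and TRIAP1 among those lower. GADD45A, a growth arrest gene, fell by 0.51 (SE 0.0602), and the direct difference from siRNA2 was -1.11 (adjusted p = 2.4e-08).

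Zinc finger genes named ZNF, many of them transcriptional repressors, had 75 of 397 members called higher and 19 lower, with a median of 0.12. Without NC replicate 1, 47 were called higher, and 12 were called lower without siRNA1 replicate 2 and 10 without NC replicate 2. ZNF629 had 2916, 3262 and 3281 normalized counts with siRNA1, against 1850, 1752 and 1803 with NC (log2 fold change 0.81, SE 0.0652, adjusted p = 1.8e-05). ZNF469 rose by 1.04 (SE 0.0880) and ZNF616 by 1.02 (SE 0.101), while ZNF292 fell by 0.57 (SE 0.0506).

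Several metabolic lists had more members lower than higher. Cholesterol synthesis enzymes were called lower in 17 of 22 cases, glycolytic enzymes in 14 of 20 and further hypoxia-induced genes in 19 of 28. The medians were -0.52, -0.25 and -0.44. SLC2A3, in the last list, was its single member called higher. Of 79 nuclear respiratory chain subunits, 3 were called higher and 13 lower (16.5%), with a median of -0.11, or -0.20 with 35 lower without siRNA1 replicate 1. With all libraries, the share called lower was near the 14.3% of all tested genes with a mean of at least 50. COX5A of cytochrome c oxidase had 2245, 2134 and 2041 normalized counts with siRNA1, against 4158, 4207 and 3961 with NC (log2 fold change -0.94, SE 0.0556, adjusted p = 2.2e-06). COX5A was the lowest member of its list, and its 3' UTR holds 1 siRNA1 guide word. NRF2 targets did not share this direction, with 6 of 23 called higher, 2 lower and a median of 0.005. TXNRD1, thioredoxin reductase, was the lowest member of that list. It had 23160, 22830 and 23514 with siRNA1, against 38236, 38476 and 37804 with NC, and its log2 fold change was -0.72 (SE 0.0297, adjusted p = 2.1e-07). ABCC3, GCLM and FTH1 of the same list were called higher, by 0.55, 0.47 and 0.39. Of 24 amino acid transporters, 7 were called higher and none lower by edgeR. Leaving out any single library gave 3 or 4 higher, and 1 was lower without siRNA1 replicate 2. Of 24 heat shock chaperones, 7 were called higher (29.2%) and 1 lower (3 lower without siRNA1 replicate 1, 0 without siRNA1 replicate 2 or NC replicate 3). The share called higher was near the 26.5% of all genes over 10000, and both sets had a median standard error of 0.037. HSPD1 of the mitochondrial matrix rose by 0.32 (SE 0.0248).

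**Figure D5:**
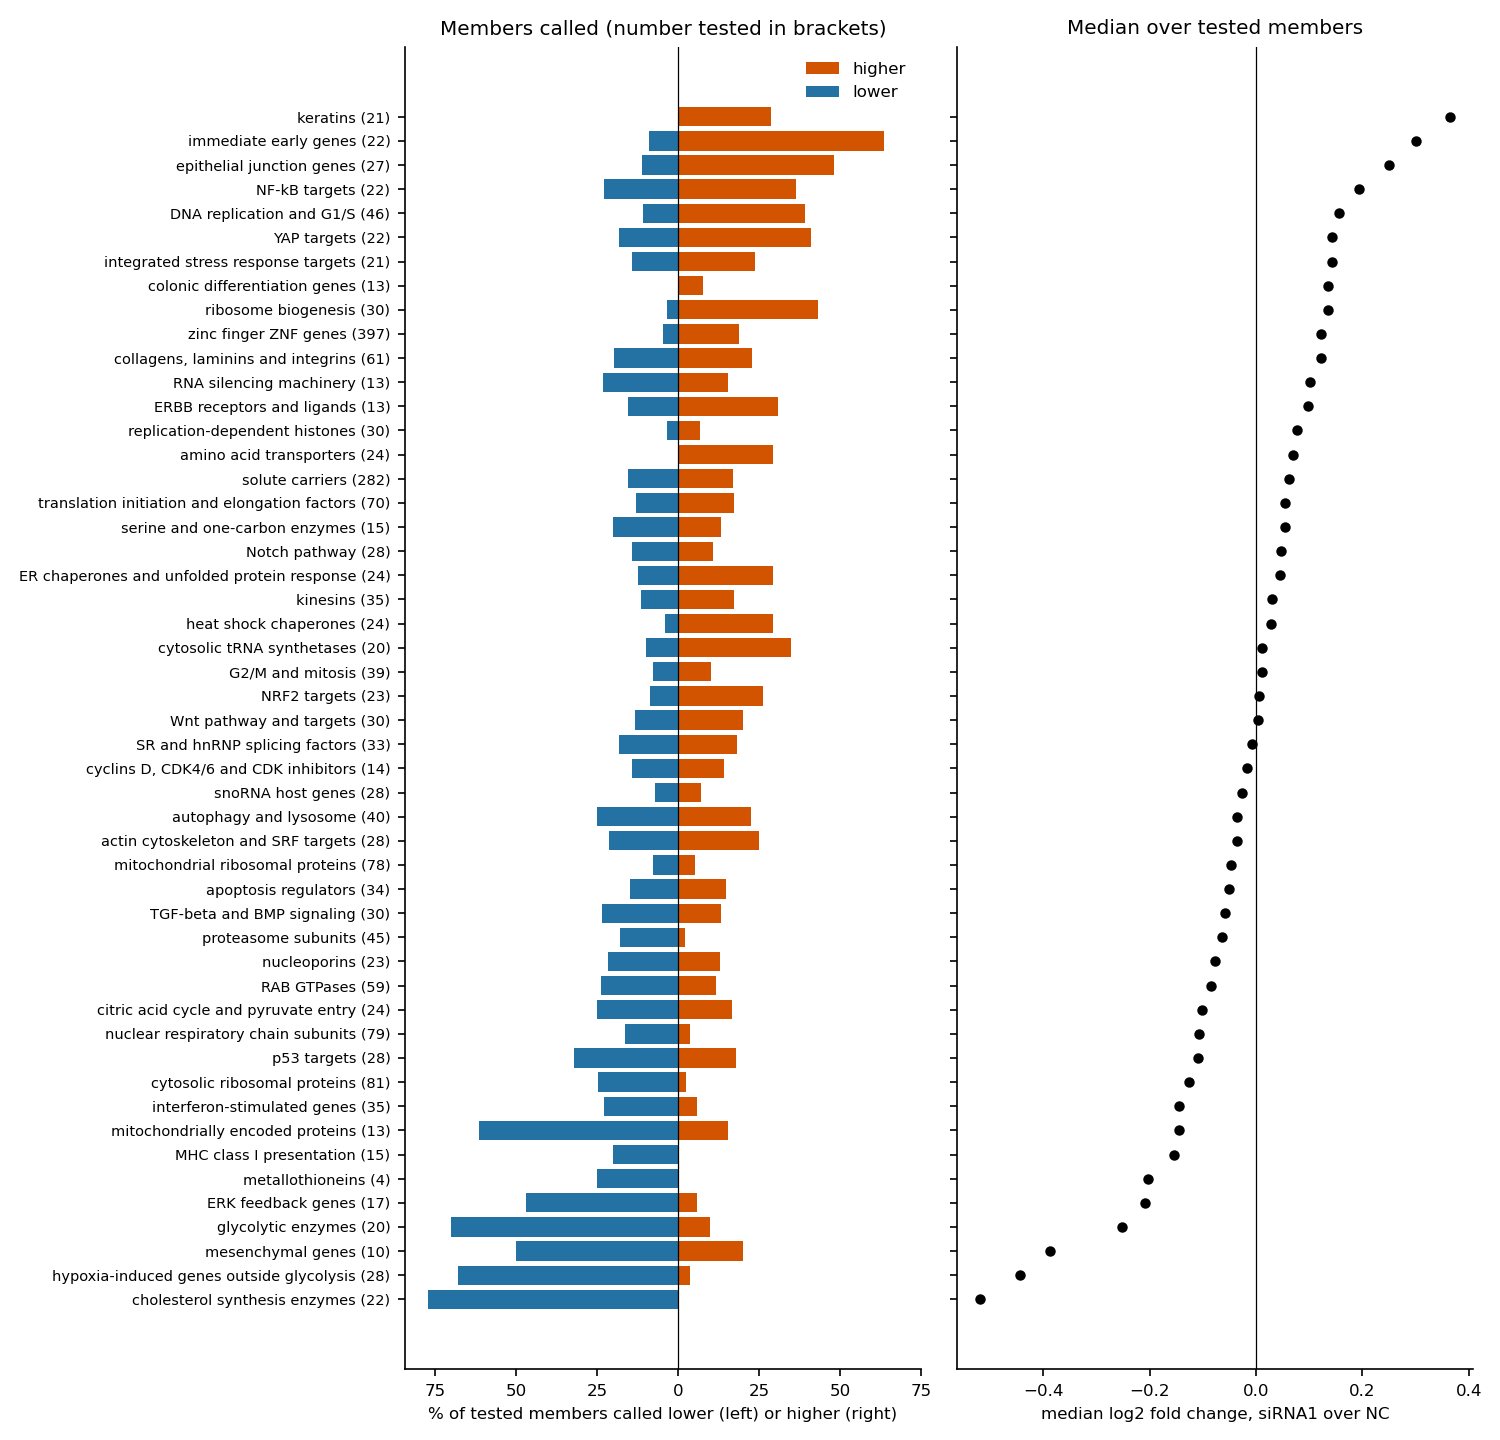
The 50 gene lists in order of their median log2 fold change of siRNA1 over NC (right panel), with the percentage of tested members called higher or lower (left panel) and the number tested in brackets. Keratins (0.36) and immediate early genes (0.30) have the highest medians, and cholesterol synthesis enzymes (-0.52) the lowest. The median standard error of the keratins, 0.444, is larger than their median.

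Among immune-related lists, of 35 interferon-stimulated genes, 2 were called higher and 8 lower, with a median of -0.14. Leaving out any single library gave 1 to 5 lower, with 5 without siRNA1 replicate 1 and 1 without NC replicate 2, and the higher calls were 1 to 3. Of 15 genes of MHC class I presentation, 3 were called lower and none higher by edgeR. Of 22 NF-kB targets, 8 were called higher and 5 lower, with a median of 0.19, or 0.02 without siRNA1 replicate 1. Leaving out 1 library in turn gave 4 to 8 higher and 2 to 4 lower, lowest in both directions without NC replicate 2. ICAM1, an adhesion molecule for leukocytes, had 700, 575 and 575 with siRNA1, against 332, 291 and 427 with NC (log2 fold change 0.82, SE 0.165, adjusted p = 0.0054). Among 13 genes of RNA silencing, 2 were called higher (5 without siRNA1 replicate 1) and 3 lower. The 3 were the GW182 genes TNRC6A, TNRC6B and TNRC6C, whose proteins bind Argonaute, and TNRC6B had 4908, 5293 and 5697 with siRNA1, against 7206, 6943 and 7592 with NC (log2 fold change -0.45, SE 0.0572, adjusted p = 0.00031). The call of TNRC6C, at -0.21, was lost when any single NC replicate or siRNA1 replicate 1 or 2 was left out, at -0.25 to -0.18.

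Of 4 scarce genes that the study named for both siRNAs, PIWIL4, an Argonaute-family protein of the piRNA pathway, had 24.7, 19.8 and 36.6 normalized counts with siRNA1, against 42.4, 84.8 and 78.4 with NC. Its log2 fold change was -1.34 (SE 0.425, adjusted p = 0.047), and the call was lost without siRNA1 replicate 1 or 2 or NC replicate 2 or 3, at -1.28 to -1.16. The study also measured PIWIL4 by qPCR and reports a fall after LINC00857 knockdown. The exonuclease TREX1 had 33.3, 11.9 and 8.14 with siRNA1, against 85.7, 37.2 and 98.5 with NC (log2 fold change -2.04, adjusted p = 0.031). TEN1, of the telomere CST complex, had 98.9, 50.4 and 84.4 with siRNA1, against 202, 417 and 137 with NC (log2 fold change -1.69, adjusted p = 0.014). TBC1D28 had 4.76, 7.91 and 7.12 with siRNA1, against 16.1, 26.9 and 25.1 with NC, and did not pass the test (adjusted p = 0.11). TREX1 lost its call without siRNA1 replicate 2 or 3 or NC replicate 1 or 3, at -1.93 to -1.70. TEN1 lost it without siRNA1 replicate 2 (-1.46) or NC replicate 2 (-1.12). TREX1 overlaps ATRIP, PIWIL4 overlaps FUT4 and TEN1 overlaps TEN1-CDK3 on the same strand, so their reads may be shared. RPL17-C18orf32, described above, was named by the study together with these 4.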

How the data were processed

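RNA of HCT116 cells was sequenced and the authors deposited a table of raw read counts by gene for 9 libraries, with 3 libraries for each of the 3 siRNAs. The submitters' processing notes name the build hg19. The aligner, the counting program, its annotation and its use of strand were not given in the sources used here. The 6 siRNA1 and NC libraries were fitted with edgeR 4.0.16 (R 4.3.3), after filterByExpr (minimum count 10, minimum total 15) and TMM normalization, with the quasi-likelihood F test and Benjamini-Hochberg adjustment at 0.05. The difference between the siRNAs came from a model of all 9 libraries. DESeq2 1.42.0 and limma 3.58.1 (voom) were alternatives. On simulated data with 19129 genes, 50 genes each were changed by 0.25, 0.5, 1 and 2 on the log2 scale. All of these had an expected mean of at least 50 counts. Of them, 22%, 52%, 74% and 88% were called, with 12 of 18929 unchanged genes. Far fewer genes were changed there than were called in the data, so these shares may not carry over to this comparison. Classes, coordinates and 3' UTRs came from GENCODE release 29 (GRCh38), joined by Ensembl ID for 34766 of 35817 genes, and no hg19 coordinate was used. Each 3' UTR is that of 1 annotated transcript. The seed words came from the siRNA sequences in the study's methods.

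Named genes were LINC00857, the 12 largest changes per direction (mean normalized count of at least 50, called, groups not overlapping), the 8 most abundant called genes per direction, up to 3 per non-coding class and direction by adjusted p, up to 5 members per list by adjusted p together with members a result turns on, the 5 genes whose sites are printed (largest falls with a site, groups not overlapping, outside chromosome 8), and 4 genes named by the study. Only part of them is described, and some items are not reported here. The comparison, the lists and the rule were chosen with earlier results of these data known. TNRC6A and TNRC6C fall under the same list as TNRC6B.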

Additional observations from a re-analysis of the deposited data

How the results depend on the processing

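No named gene changed direction under the alternatives run, and LINC00857 stayed called in all 15 that included it, from -1.27 to -1.14 on the log2 scale. The 2100 higher and 2192 lower calls became 2413 and 2474 with DESeq2, 2162 and 2249 with limma-voom, and 1517 and 1608 with no filter on low counts. Upper quartile normalization gave 2466 higher and 1854 lower calls. Among calls of at least 1 on the log2 scale, no filter left 137 higher and 70 lower, and protein-coding genes alone gave 78 lower. Leaving out 1 library in turn gave 1435 to 1982 higher and 1561 to 2236 lower calls, and 152 to 194 higher and 76 to 134 lower calls of at least 1. The lowest, 76, was without NC replicate 3. Replicate numbers did not pair the libraries (correlations of same-numbered deviations 0.01, -0.09 and -0.04), and a replicate block gave 2057 higher and 2139 lower calls and -1.18 for LINC00857. Medians of the 50 lists stayed within the median standard error of their members in 782 of 799 fits. Without siRNA1 replicate 1, more ribosomal protein, respiratory chain and proteasome genes were called lower (66, 35 and 17, against 20, 13 and 8 with all libraries). With 3 libraries a group and a median standard error of 0.696 for genes under 50 normalized counts, small changes of scarce genes could not be seen.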
